A study of Homo sapiens with 12 samples.

Results

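The difference between 2 camptothecin responses, that of SLFN11 knockout cells minus that of SLFN11-positive parent cells, was measured for every gene in RNA-seq of CCRF-CEM, a human T lymphoblast leukemia line. All 12 libraries of the series entered the contrast, and no measured value was used to choose them. The libraries formed 4 groups of 3: parent cells (labelled wild-type) with the solvent DMSO, parent cells with camptothecin, SLFN11 knockout cells with DMSO and SLFN11 knockout cells with camptothecin. Camptothecin was given at 100 nM for 4 h, and all groups grew in RPMI1640 with 10% serum. The labels do not state the method of the knockout, the number of clones behind it, or the origin of replicates from separate cultures. The p-values thus reflect the scatter among these 12 libraries, part or all of which may be technical, and a difference between the genotypes cannot be told apart from a difference between 2 cell populations.

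Camptothecin traps DNA topoisomerase I on DNA, so that replication forks and transcribing polymerases run into the trapped complex. SLFN11 is a nuclear protein that binds stressed replication forks, blocks replication and sensitizes cancer cells to such drugs. Immediate early genes, such as FOS and EGR1, are the first genes a cell switches on after a stimulus, without new protein synthesis, and the messages of replication-dependent histones are made in S phase and destroyed quickly when DNA synthesis stops.

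The interaction is the log2 response of knockout cells minus the log2 response of parent cells. It is negative where knockout cells rose less or fell more than parent cells, and positive where they rose more or fell less. It was tested in exon reads and again in intron reads, which come largely from RNA that has not been spliced. Levels are given as CPM, the count of a gene divided by the total of its library on the standard CPM scale, with totals adjusted by TMM, a method that sets the typical gene to no change. Summed levels of lists are the exception and use unadjusted totals. A gene was called at an adjusted p below 0.05 (edgeR quasi-likelihood test, Benjamini-Hochberg adjustment over all genes tested), and every adjusted p below comes from that test. The standard error (SE) of a log2 value was derived from the test statistic and restates the test. In such bulk samples, fewer cells with a transcript and less transcript per cell cannot be told apart.

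The deepest library, parent control replicate 1, held 135592046 exon reads, and the other 11 held 42439957 to 63606344. It also differed most from its own group: the chi-square per degree of freedom of its counts against the other parent controls was 193.4 and 152.8, against 5.0 to 18.8 for all other pairs within a group. Knockout camptothecin replicate 3 had the largest share of intron reads, 33.55%, against 26.31% to 30.48% in the others. The totals of calls and the counts of several lists are therefore also given without parent control replicate 1 or without both libraries. For the remaining lists only the count with all 12 libraries is given. SLFN11 itself was still transcribed in the libraries labelled knockout (88.73, 86.1 and 85.92 CPM with DMSO against 117.3, 107.4 and 112.2 CPM in parent cells), so its level checks those labels only in part. Its intron reads went the other way, with 109.5, 111.4 and 110.1 CPM in untreated knockout and 73.06, 74.86 and 73.01 CPM in untreated parent libraries (log2 0.58 ± 0.07, adjusted p = 9.43e-07). The interaction of SLFN11 was -0.05 ± 0.08 (log2 ± SE, adjusted p = 0.791). All 15 T lymphoblast markers had reads, with a summed level of 1560 to 2210 CPM, against 29.5 to 55.8 CPM for B-lineage, 0.76 to 1.68 CPM for myeloid, 6.75 to 14.3 CPM for erythroid and 1.97 to 10.5 CPM for epithelial and fibroblast markers. No member of these other lists was called for the interaction with all 12 libraries. Without parent control replicate 1, 2 of 5 B-lineage markers were called positive, against 5.1% of all genes in that fit.

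Promoter sequences of 4 genes are shown because they come from 3 groups with many negative calls among their tested members: immediate early genes, the NF-kappaB system and replication-dependent histones. Each line holds the 250 bases before the start of the gene, 5′ to 3′ on the strand of the gene, from RefSeq on build GRCh38.p14. Capitals mark the CArG box (the binding site of serum response factor) in EGR1, the kappaB motif (the binding site of NF-kappaB) in NFKBIA, and the motifs CCAAT in both histone genes and TATAAA in HIST1H2BJ, read on either strand. Where 2 matches on opposite strands overlap, 1 run of capitals holds both. The windows are chr5:138465229-138465478 on the plus strand for EGR1, chr14:35404750-35404999 on the minus strand for NFKBIA, chr6:27132796-27133045 on the minus strand for HIST1H2BJ and chr6:27838376-27838625 on the minus strand for HIST1H2AK.
EGR1: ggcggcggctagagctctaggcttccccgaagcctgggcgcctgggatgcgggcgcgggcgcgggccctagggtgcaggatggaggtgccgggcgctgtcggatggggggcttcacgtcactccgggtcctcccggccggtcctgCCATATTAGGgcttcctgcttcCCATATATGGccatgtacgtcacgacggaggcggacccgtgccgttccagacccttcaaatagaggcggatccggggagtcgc
NFKBIA: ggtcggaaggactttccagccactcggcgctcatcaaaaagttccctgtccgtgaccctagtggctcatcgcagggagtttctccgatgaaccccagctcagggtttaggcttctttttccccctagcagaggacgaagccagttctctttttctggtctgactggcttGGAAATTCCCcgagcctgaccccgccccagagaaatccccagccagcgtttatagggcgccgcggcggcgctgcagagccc
HIST1H2BJ: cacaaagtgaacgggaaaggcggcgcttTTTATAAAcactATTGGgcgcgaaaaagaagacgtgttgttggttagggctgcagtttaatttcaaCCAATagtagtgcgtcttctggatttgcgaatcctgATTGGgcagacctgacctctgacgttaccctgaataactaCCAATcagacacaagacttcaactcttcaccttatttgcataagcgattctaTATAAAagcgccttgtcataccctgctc
HIST1H2AK: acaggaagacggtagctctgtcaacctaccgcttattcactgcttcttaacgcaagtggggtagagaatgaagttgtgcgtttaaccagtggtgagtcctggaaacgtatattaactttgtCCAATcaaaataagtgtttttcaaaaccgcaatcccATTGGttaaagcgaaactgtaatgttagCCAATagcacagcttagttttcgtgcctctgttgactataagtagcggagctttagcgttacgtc
These matches describe letters only. A CArG box stood in 2 of 38 matched promoters of the immediate early lists (5.26%), and in 1.14% of the 27305 promoters of the table. The motif TGACGTCA, the cAMP response element, stood in 4 of those 38 (10.5%) and in 1.77% of all, and the AP-1 motif TGANTCA in 0 of 38 against 6.6% of all. Promoters of the NF-kappaB lists held a kappaB motif in 8 of 21 (38.1%), against 9.57% of all. CCAAT stood in 40 of 49 core histone promoters (81.6%) and TATAAA in 33 of 49 (67.3%), against 33.0% and 11.1% of all.

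In exon reads 1487 of 23546 genes were called for the interaction (6.32%), 434 positive (1.84%) and 1053 negative (4.47%). Counts of called list members in exons, given below, stand against these shares. Negative interactions were also the larger ones: 246 negative genes (1.04%) and 30 positive genes (0.127%) passed 2-fold. Of the 1053 negative genes, 711 were called higher in parent cells and not called in knockout cells, 159 were called higher in both, 99 were called lower in knockout cells alone, and 61 were called higher in parent and lower in knockout cells. Of the 434 positive genes, 209 were called lower in parent cells and not called in knockout cells, 155 were called lower in both and 52 were called higher in knockout cells alone. Over all genes 16.8% were called higher and 17.1% lower in parent cells, and 7.3% higher and 9.28% lower in knockout cells. These counts describe the called genes, since the interaction is computed from both responses. The median response of the negative genes was 0.61 in parent and 0.03 in knockout cells, and that of the positive genes was -0.59 in parent and -0.10 in knockout cells, against 0.01 and 0.02 over all genes.

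The split of calls moved with the libraries and the scale. Without parent control replicate 1 there were 1241 positive (5.1%) and 2262 negative genes (9.3%) of 24319. Without both libraries that stand apart there were 2083 (8.61%) and 2922 (12.1%) of 24189. Exon counts of list members in those fits stand against these shares, not against those of all 12 libraries. Each of the other 11 libraries left out in turn gave 179 to 575 positive and 720 to 1002 negative genes. Scaling by library size alone gave a split of 860 positive to 996 negative, so that 46.3% of calls were positive, against 29.2% with TMM. DESeq2 gave 817 positive and 1268 negative genes. Among the 1053 negative genes, 1047 were also called negative without parent control replicate 1, and 710 to 890 without 1 of the other 11 libraries. Of the 434 positive genes, 428 and 172 to 389 kept their call in those fits.

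**Figure D1:**
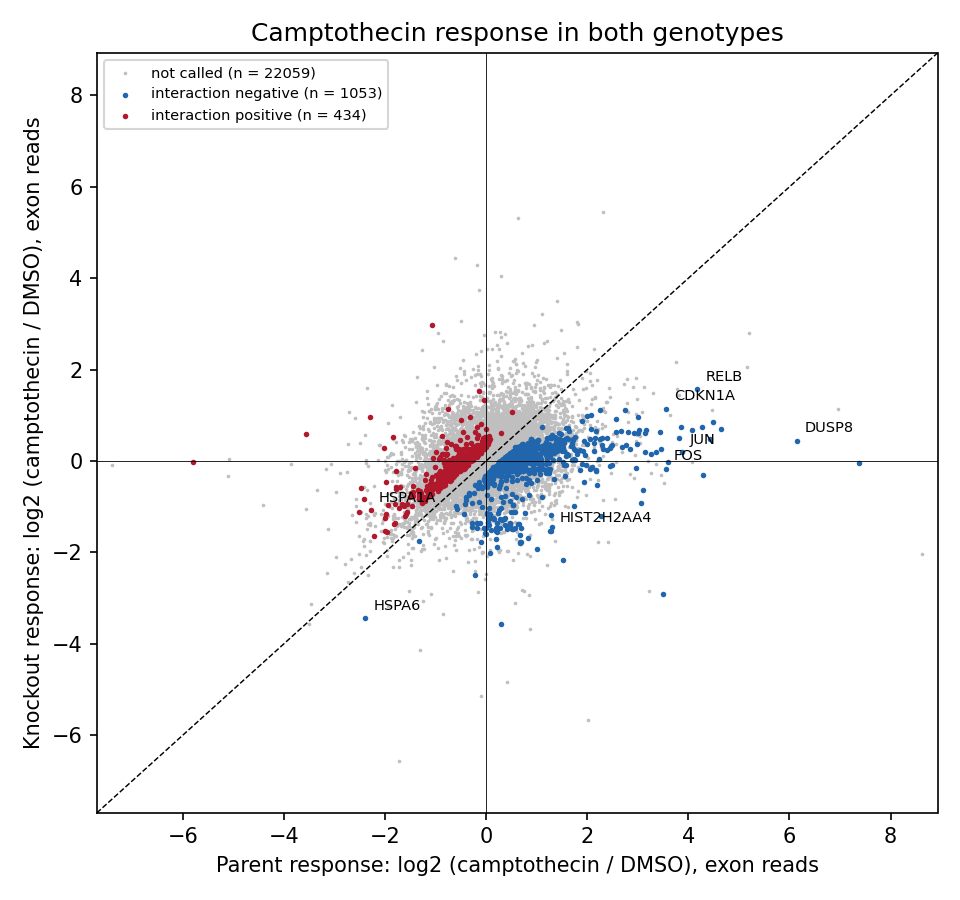
Camptothecin response of parent cells (x axis) against that of knockout cells (y axis), both as log2 change in exon reads, 1 point per gene for the 23546 genes tested. Blue points are the 1053 negative and red points the 434 positive interactions, grey points were not called, and the dashed line marks equal responses; the largest negative interactions, such as DUSP8, lie far to the right near a knockout response of 0.

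AP-1 is a family of transcription factors made of FOS and JUN proteins and their partners. Of 13 AP-1 subunits tested, 8 were called negative and none positive, with a median interaction of -1.63 against 0.02 over all genes. JUN (hg19 chromosome 1, 59246464 to 59249784) stood at 48.51, 43.86 and 42.26 CPM in untreated parent libraries and at 662.8, 670.2 and 631.0 CPM with camptothecin. In knockout libraries it stood at 59.16, 56.86 and 57.98 CPM untreated and 66.45, 66.93 and 65.5 CPM treated. Treated and untreated libraries did not overlap in either genotype, yet the rise was 3.87 on the log2 scale in parent cells and 0.19 in knockout cells, an interaction of -3.67 ± 0.09 (adjusted p = 1.29e-13). FOS (chromosome 14, 75745476 to 75748932), the partner of JUN, went from 1.454, 1.624 and 1.4 CPM to 19.41, 17.49 and 15.39 CPM in parent cells. Its knockout libraries overlapped, at 1.789, 1.517 and 2.131 CPM untreated and 1.743, 1.284 and 1.839 CPM treated. The interaction of FOS was -3.71 ± 0.23 (adjusted p = 1.22e-08). ATF3 (chromosome 1, 212738675 to 212794118), a stress-induced member of the family, rose from 11.09 ± 0.342 to 113.4 ± 3.42 CPM in parent cells and from 12.71 ± 0.344 to 14.63 ± 0.627 CPM in knockout cells (mean ± SD, n = 3 libraries). Its interaction was -3.15 ± 0.09 (adjusted p = 8.63e-13). FOSB, JUND, JUNB, MAFF and FOSL2 were called with interactions of -2.54, -1.95, -1.79, -1.63 and -1.08; FOSB is uncertain because all of its exon stretch overlaps another gene. MAFK, MAFG, BATF, BATF3 and FOSL1 were not called, with values from -0.20 to 0.54.

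EGR factors are zinc finger transcription factors that growth signals induce, and NAB proteins hold them in check. EGR1 (chromosome 5, 137801178 to 137805003) stood at 1.403, 1.491 and 1.853 CPM in untreated parent libraries and at 22.5, 21.12 and 22.67 CPM with camptothecin. In knockout libraries it reached 2.157, 2.23 and 2.82 CPM from 1.516, 1.813 and 1.776 CPM. Neither genotype showed overlap, and the interaction was -3.33 ± 0.20 (adjusted p = 6.57e-09). Of 6 members tested EGR1 and EGR3 were called; EGR4 (-3.11), EGR2 (-1.05), NAB2 (-0.25) and NAB1 (-0.04) did not pass. The nuclear receptors of the NR4A family, which need no known ligand, were called negative in 3 of 3: NR4A3 at -3.13, NR4A1 at -2.16 and NR4A2 at -1.13. NR4A2 was not called without knockout control replicate 1.

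Other immediate early genes gave 20 negative calls and 1 positive call among 26 tested (median -1.33). IER2 (chromosome 19, 13261228 to 13265721), a nuclear immediate early protein, stood at 34.94, 44.22 and 50.13 CPM in untreated and at 179.0, 182.1 and 172.0 CPM in treated parent cells. Knockout libraries stood at 61.96, 60.78 and 63.41 CPM untreated and, lower, at 55.38, 58.52 and 50.35 CPM treated, but that response was not called (log2 -0.18). ARC, a cytoskeleton-associated protein first known from neurons, had an interaction of -3.96 ± 0.39 (adjusted p = 4.15e-06), and SNAI1, a repressor of epithelial genes, one of -3.11 ± 0.30 (adjusted p = 2.96e-06). KLF2, a factor that keeps T cells quiescent, was the 1 positive call, at 0.91 ± 0.22: it fell in parent cells, from 2.814, 2.561 and 2.973 to 1.733, 1.895 and 1.924 CPM, and was not called in knockout cells. KLF4, at -3.62, lost its call in 10 of the 12 fits without 1 library, and KLF2 in 4.

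A large negative interaction did not always mean a low level in treated knockout cells. RHOB (chromosome 2, 20646834 to 20649199), a small GTPase that stress induces, went from 0.255, 0.07644 and 0.3877 CPM to 5.231, 5.215 and 5.076 CPM in parent cells. Knockout cells held 5.463, 4.571 and 4.659 CPM without drug and 6.143, 7.315 and 6.832 CPM with it. Its interaction was -3.96 ± 0.32 (adjusted p = 3.07e-07), while untreated knockout cells were 4.34 ± 0.25 above untreated parent cells on the log2 scale (adjusted p = 2.41e-09). All 3 treated knockout libraries exceeded all 3 treated parent libraries.

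CDKN1A and DUSP4 also started higher in untreated knockout cells, by 1.91 (adjusted p = 3.45e-06) and 2.83 (adjusted p = 2.44e-08). The same held for DUSP8, by 2.24 (adjusted p = 9.23e-05), and ARC, by 1.19 (adjusted p = 0.0148). Where the starting levels differ this far, the difference of log2 responses is not the difference of the levels reached. JUN and FOS, by contrast, differed untreated by 0.37 (adjusted p = 0.00045) and 0.28 (adjusted p = 0.293).

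MAP kinase phosphatases switch off the kinases that induce immediate early genes. DUSP8 (chromosome 11, 1575273 to 1593149), which acts on the stress kinases JNK and p38, had the largest negative interaction among genes named by the rule, -5.71 ± 0.35 in exon reads (adjusted p = 2.64e-07). It went from 0.289, 0.9937 and 0.6247 CPM to 39.01, 41.64 and 39.98 CPM in parent libraries, and from 2.858, 2.758 and 2.466 to 3.311, 3.598 and 4.032 CPM in knockout libraries. Treated libraries lay above untreated ones in both genotypes, but the knockout response of 0.44 was not called (adjusted p = 0.237). DUSP4 (-3.52), DUSP10 (-2.61), DUSP1 (-2.39), SPRY4 (-1.5), DUSP16 (-1.42) and DUSP2 (-1.02) made up the other calls, 7 negative of 15 tested. DUSP1 is uncertain, since its exon stretch overlaps another gene throughout. DUSP6 (0.03) and DUSP7 (0.18), which act on ERK, and the SPRED inhibitors (-0.12 to -0.03) were not called. RGS16, which shortens G protein signals, rose in both genotypes with an interaction of -3.41 ± 0.17 (adjusted p = 1.26e-09); of 11 RGS genes 3 were negative and 1, RGS14, positive, which lost its call in 9 of the 12 fits without 1 library.

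**Figure D2:**
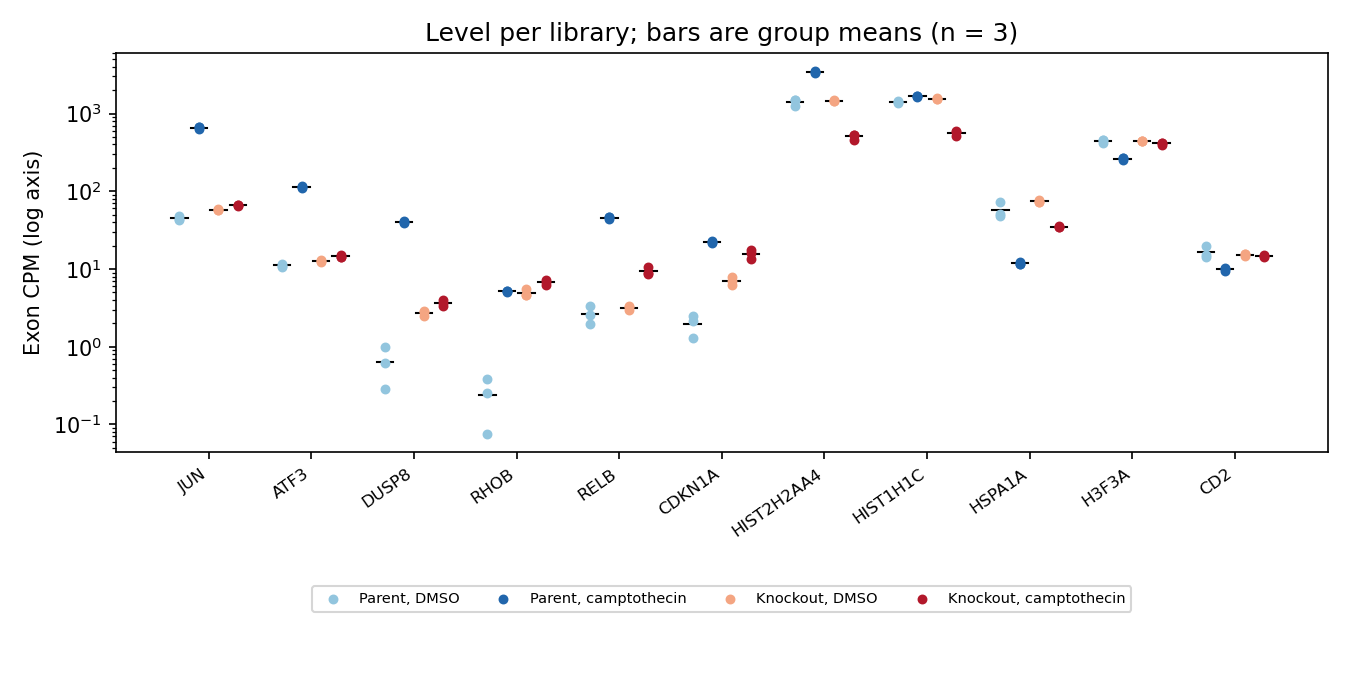
Exon CPM of 11 genes in each of the 12 libraries on a log axis, with 4 columns of points per gene for parent DMSO, parent camptothecin, knockout DMSO and knockout camptothecin and a bar at each group mean. JUN and DUSP8 show 1 high group, RHOB shows 3 high groups, and the histone HIST2H2AA4 shows the treated parent above and the treated knockout below both controls.

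Regulators of mRNA decay and growth arrest were called negative in 9 of 12 (median -0.88). BTG2, which recruits deadenylases and is also a p53 target, rose from 10.8, 9.459 and 11.03 to 57.82, 59.31 and 56.29 CPM in parent cells. In knockout cells it rose from 11.96, 12.73 and 12.43 to 15.6, 15.27 and 15.67 CPM, which gave an interaction of -2.14 ± 0.10 (adjusted p = 4.45e-10). PPP1R15A, a phosphatase subunit that restores translation after stress, ZFP36, which destabilizes AU-rich messages, and GADD45B followed at -1.82, -1.47 and -0.96. Of 23 p53 targets, 8 were negative and 1 positive (median -0.12). The negative ones were BBC3 (-2.80), CDKN1A (-2.42), BTG2, PLK3, SESN2, GADD45A, PMAIP1 and AEN, of which GADD45A, PLK3 and BTG2 are also members of the immediate early or mRNA decay lists. ZMAT3, which binds RNA, was the positive one at 0.73 ± 0.11 (adjusted p = 0.000419): it fell in parent cells by 0.46 and was higher in treated knockout cells by 0.27, both called. MDM2 (-0.10), DDB2 (-0.12), XPC (-0.08), BAX (0.20) and TNFRSF10B (0.32), further p53 targets, were not called.

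CDKN1A (chromosome 6, 36644304 to 36655115) encodes the CDK inhibitor p21. It stood at 1.284, 2.14 and 2.477 CPM in untreated and 21.74, 22.89 and 22.14 CPM in treated parent cells, and at 6.299, 7.92 and 7.041 CPM untreated and 15.95, 17.55 and 13.33 CPM treated in knockout cells. Both genotypes rose, by 3.56 and 1.14 on the log2 scale, and their difference was -2.42 ± 0.25 (adjusted p = 1.56e-05). Of 8 CDK inhibitors 3 were negative and 1 positive. CDKN2D and CDKN1B were the other negative ones, but they were not called in parent cells (0.02 and -0.10) and fell in knockout cells by 0.74 and 0.57. CDKN2C was the positive one at 0.43 (adjusted p = 0.0409), and it lost its call in 9 of the 12 fits without 1 library, as CDKN1B did in 3.

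NF-kappaB factors wait in the cytoplasm bound to inhibitors and switch on survival and inflammation genes. Of 12 subunits and inhibitors 9 were called negative and none positive (median -1.02). RELB (chromosome 19, 45504687 to 45541451), the subunit of the non-canonical pathway, rose from 1.938, 2.542 and 3.382 to 46.67, 47.16 and 43.69 CPM in parent cells. It also rose in knockout cells, from 2.955, 3.31 and 3.197 to 10.54, 8.616 and 8.942 CPM, and the interaction was -2.60 ± 0.20 (adjusted p = 3.26e-07). NFKB2, its precursor partner, likewise rose in both genotypes, by 3.0 in parent and 0.95 in knockout cells (interaction -2.05 ± 0.10, adjusted p = 4.45e-10). NFKBIA, the inhibitor IkappaB alpha whose promoter is shown above, rose from 54.6, 40.72 and 41.16 to 152.4, 146.8 and 148.9 CPM in parent cells and from 45.36, 42.44 and 46.26 to 68.3, 61.98 and 58.27 CPM in knockout cells. Its interaction was -1.22 ± 0.13 (adjusted p = 1.75e-05). RELA, which carries the canonical signal, and NFKB1 were not called (-0.29 and -0.35). Among 13 target genes 6 were negative: CD69, an early activation antigen of lymphocytes, at -2.06 ± 0.07 (adjusted p = 2.01e-11), IER3, TNF, BIRC3, TRAF1 and TNFAIP2. CD69 is a case of opposite calls, since it rose to 206.2 to 210.1 CPM in treated parent cells and fell to 48.65 to 50.94 CPM in treated knockout cells, from 56.36 to 58.27 CPM untreated in both. The target list without parent control replicate 1 gave 9 negative and 1 positive, against 9.3% and 5.1% of all genes in that fit.

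Replication-dependent core histones package newly made DNA, and 56 of 59 tested were called negative and none positive, against 4.47% of all genes. The median interaction was -1.61, with a median response of 0.24 in parent and -1.38 in knockout cells. In parent cells 28 were called higher and 2 lower, and in knockout cells 56 were called lower and none higher. Their summed level, on totals not adjusted by TMM, was 40300 to 43100 CPM in untreated parent, 56500 to 58100 CPM in treated parent, 43300 to 43500 CPM in untreated knockout and 17700 to 19800 CPM in treated knockout libraries. With library size alone the median response of all genes was 0.138 in parent and 0.171 in knockout cells. The 4 ranges show a rise in parent and a fall in knockout cells from nearly the same start. Leaving out parent control replicate 1 gave 57 of 59 negative, and leaving out both libraries that stand apart gave 56. HIST1H3E (-0.50), HIST1H4F (-1.80) and HIST3H2A (-3.48) did not pass. Many of these genes are near-identical copies, so the split of reads among them is uncertain.

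HIST2H2AA4 (chromosome 1, 149822642 to 149823190), an H2A gene with a near-identical neighbour HIST2H2AA3, stood at 1252, 1503 and 1481 CPM in untreated and 3509, 3453 and 3362 CPM in treated parent libraries. Knockout libraries fell from 1436, 1451 and 1493 to 531.3, 524.9 and 462.3 CPM. No group overlapped another except the 2 untreated groups, and the interaction was -2.81 ± 0.11 (adjusted p = 5.02e-11). HIST1H2BJ (chromosome 6, 27093675 to 27100540) and HIST1H2AK (chromosome 6, 27805657 to 27806116), whose promoters are printed above, had interactions of -2.47 ± 0.15 (adjusted p = 2.88e-08) and -2.51 ± 0.09 (adjusted p = 1.31e-11). HIST1H2AK stood at 161.0, 158.8 and 158.4 CPM in untreated and 286.5, 279.6 and 283.3 CPM in treated parent libraries. In knockout libraries it stood at 144.4, 146.2 and 155.7 CPM untreated and 48.82, 47.56 and 42.66 CPM treated.

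Linker histones H1, which bind the DNA between nucleosomes, were called negative in 7 of 8 (median -1.35). HIST1H1C moved from 1358, 1411 and 1446 to 1665, 1659 and 1651 CPM in parent cells and from 1596, 1543 and 1539 to 603.9, 577.9 and 520.2 CPM in knockout cells (interaction -1.70 ± 0.09, adjusted p = 2.62e-09). HIST1H1D was not called in parent cells (-0.01) and fell by 1.48 in knockout cells. H1F0 and H1FX, linker histones outside the replication-dependent class, were negative at -1.54 and -1.08. Histone variants made outside S phase were mixed: of 10 tested, H3F3A (0.64) and H2AFY (0.33) were positive and H3F3B (-0.66) and H2AFJ (-0.45) negative. H3F3A fell from 422.5, 458.2 and 453.0 to 270.6, 263.8 and 254.9 CPM in parent cells and was not called in knockout cells, at 447.1, 441.3 and 448.1 CPM untreated and 420.6, 420.6 and 394.3 CPM treated. H2AFY was not called in 9 of the 12 fits without 1 library. Among 18 genes of histone mRNA transcription and processing, the median interaction was 0.02; SLBP, which binds the histone stem loop, was not called (0.33), and CCNE2, a cyclin of the G1/S transition, was the positive call at 0.56 ± 0.12 (adjusted p = 0.0117). CCNE2 rose in both genotypes, from 59.88 to 80.89 CPM to 93.53 to 98.15 CPM in parent and from 79.34 to 80.19 CPM to 162.4 to 176.7 CPM in knockout cells. HINFP, CSTF2T (with no exon stretch outside other genes) and UPF1 were the negative calls, at -0.55, -0.45 and -0.41, and 6 were negative and 2 positive without parent control replicate 1.

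Genes called in opposite directions in the genotypes, with the interaction called as well, numbered 69 of 23546 (0.293%). Of these, 61 rose in parent and fell in knockout cells, 29 of them histone genes, and 8 did the reverse. The linker histone HIST1H1T was among the 61: it went from 2.958, 2.312 and 2.779 to 4.947, 5.669 and 5.534 CPM in parent and from 1.575, 1.576 and 1.358 to 0.3921, 0.2703 and 0.5432 CPM in knockout cells.

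**Figure D3:**
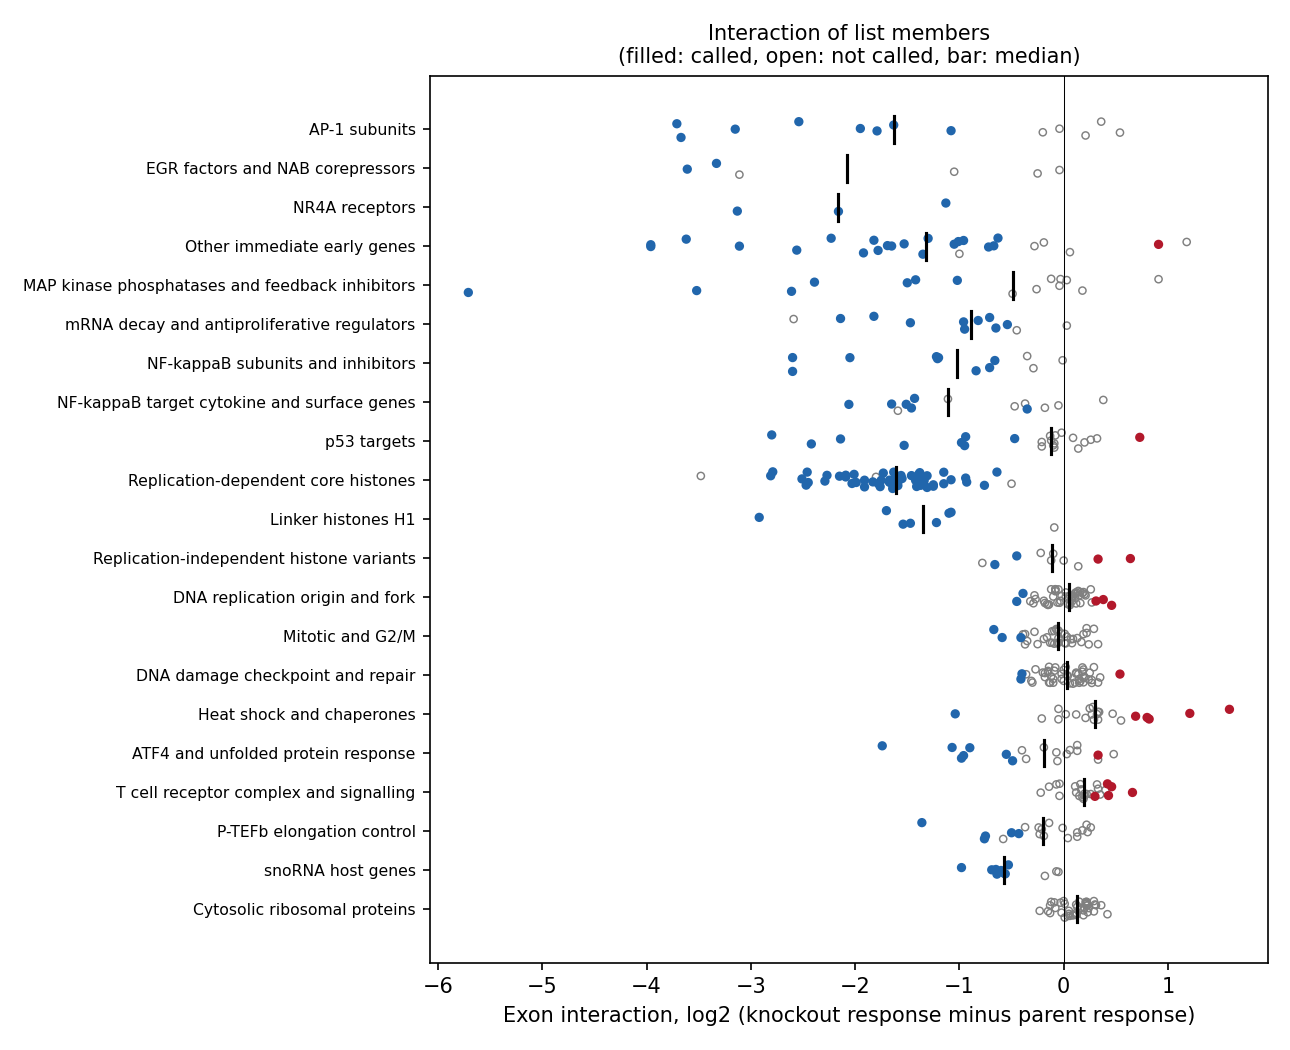
Exon interaction (x axis, log2) of the tested members of 21 gene lists, 1 point per gene, filled where called (blue negative, red positive) and open where not, with a bar at the median of the list. Core histones, linker histones and immediate early lists lie almost wholly to the left of 0, while replication, mitotic, repair and ribosomal protein genes centre near 0.

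Of 39 mitotic and G2/M genes, 36 were called lower in parent and 38 in knockout cells, with median responses of -0.93 and -0.81, and 3 were called negative for the interaction. These were CDC25C (-0.67), a phosphatase that starts mitosis, KIF2C (-0.59), a microtubule depolymerase, and CDC20 (-0.41), an activator of the anaphase-promoting complex; the 7.69% called in either direction stand against 6.32% of all genes. Leaving out parent control replicate 1 gave 18 negative and 2 positive mitotic genes, with a median of -0.17 against -0.05. That fit called 9.3% of all genes negative and 5.1% positive. Of 49 replication origin and fork genes 3 were positive, RFC4 (0.46), RPA1 (0.38) and PCNA (0.31), and 2 negative, GINS3 (-0.45) and ORC6 (-0.39). RFC4 and RPA1 lost their calls in 8 and 5 of the 12 fits without 1 library. Of 49 repair and checkpoint genes PARP1, which senses strand breaks, was positive at 0.54 ± 0.11 (adjusted p = 0.0076), and the topoisomerases TOP3A (-0.41) and TOP3B (-0.40) were negative. The called shares of the replication and repair lists were 10.2% and 6.12%, against the same 6.32%. Without parent control replicate 1, replication had 3 positive and 10 negative of 49, and repair 4 positive and 9 negative of 49. Over all genes that fit called 5.1% positive and 9.3% negative. PARP1 fell in parent cells, from 282.9, 226.7 and 217.3 to 167.9, 163.1 and 165.4 CPM, and knockout libraries overlapped, at 193.2, 186.6 and 193.1 CPM untreated and 193.4, 192.3 and 182.0 CPM treated.

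Among heat shock genes and chaperones 5 of 22 were positive and 1 negative, with a median of 0.30, against 1.84% of all genes called positive. No member was called higher in either genotype, and 19 were called lower in parent against 11 in knockout cells. HSPA1A (chromosome 6, 31783290 to 31785722), the stress-inducible HSP70, fell from 73.32, 51.23 and 48.17 to 11.53, 11.58 and 12.39 CPM in parent cells and from 76.21, 72.62 and 73.38 to 34.94, 34.82 and 35.31 CPM in knockout cells. The interaction was 1.21 ± 0.17 (adjusted p = 0.000336), and its near-identical copy HSPA1B, to which reads may be shared, had 0.82 ± 0.08 (adjusted p = 2.92e-06). HSPA8, the constitutive HSP70, and HSPE1, a mitochondrial chaperonin, were positive at 0.80 and 0.69, as was HSPA1L (1.59), whose exons overlap HSPA1A in part and which lost its call in 7 of the 12 fits without 1 library. HSPA6, an inducible HSP70 whose exons overlap another gene throughout, went the other way, at -1.04 ± 0.23 (adjusted p = 0.0112): it fell from 8.358 to 9.682 CPM to 1.355 to 1.944 CPM in parent and from 6.561 to 8.504 CPM to 0.585 to 0.7602 CPM in knockout cells. Of the 22, 11 were positive without parent control replicate 1 and 12 with library size alone, against 5.1% and 3.65% of all genes in those fits.

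T cell genes gave 5 positive and no negative calls among 26 of the receptor complex and its signalling, CD2 (0.66), CD1E (0.46), FYN (0.43), CD247 (0.42) and CD3G (0.30), with a median of 0.19, against 1.84% of all genes called positive. The median response of this list was -0.43 in parent cells and -0.25 in knockout cells. CD2, an adhesion receptor, fell from 19.7, 14.98 and 14.41 to 9.548, 10.4 and 10.12 CPM in parent cells, and its knockout libraries overlapped, at 14.81, 15.41 and 15.63 CPM untreated and 14.84, 15.07 and 14.35 CPM treated. CD1E, FYN, CD247 and CD3G lost their calls in 8, 9, 4 and 8 of the 12 fits without 1 library. Without parent control replicate 1, 12 of 26 were positive and 1 negative, against 5.1% and 9.3% of all genes in that fit. Among 23 T lymphoblast transcription factors and Notch genes, GATA3 (0.71) and IKZF1 (0.37) were positive, and RUNX3 (-1.15) and HES4 (-1.0) negative, a share of 17.4% against 6.32% of all genes. GATA3 lost its call in 4 of the 12 fits without 1 library and IKZF1 in 1. The count was 5 positive and 3 negative without parent control replicate 1, and 6 and 6 without both libraries that stand apart. Over all genes those fits called 5.1% positive and 9.3% negative, and 8.61% and 12.1%.

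Of 19 ATF4 and unfolded protein response genes 7 were negative and 1, PSAT1, positive, against 4.47% and 1.84% of all genes. Without parent control replicate 1 it was 10 and 2, against 9.3% and 5.1%. DDIT3, which encodes CHOP, rose from 20.07, 17.29 and 18.46 to 48.18, 47.91 and 46.29 CPM in parent cells and fell from 17.46, 18.78 and 17.45 to 13.79, 13.9 and 13.25 CPM in knockout cells (interaction -1.74 ± 0.10, adjusted p = 5.03e-09). Only 18.1% of its exon reads lay outside other genes. Elongation control by P-TEFb, the kinase that releases paused RNA polymerase II, had 5 negative members of 20, against 4.47% of all genes, led by HEXIM1, its inhibitor, at -1.36 ± 0.12 (adjusted p = 1.18e-06), and MEPCE, which caps the 7SK RNA, at -0.76. CDK9, its kinase subunit, was not called (-0.21). The count was 8 negative without parent control replicate 1, and 11 negative and 1 positive without both libraries that stand apart. Those fits called 9.3% and 12.1% of all genes negative. Interferon-stimulated genes gave IRF7 (-1.01) and BST2 (0.41) among 29, a share of 6.9% against 6.32% of all genes. Of this list 5 were positive without parent control replicate 1 and 9 without both libraries that stand apart. Those fits called 5.1% and 8.61% of all genes positive. BST2 lost its call in 8 of the 12 fits without 1 library. Calls were made for the BCL2 family in 3 negative of 16, and for schlafen genes, cytosolic ribosomal proteins and mitochondrially encoded genes in none of 5, 44 and 13. Without both libraries that stand apart, 25 of the 44 ribosomal protein genes were positive, with a median of 0.10, against 8.61% of all genes in that fit.

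Genes of the positive class moved less, and several of the largest values rested on few reads. ARHGEF12 counted 2, 0 and 0 exon reads in untreated and 8, 2 and 8 in treated knockout libraries, so its fitted interaction of 4.05 ± 0.90 (adjusted p = 0.00815) depends on the prior count and is no measure of size. CDC42BPA, FLJ27365, FRMD4B and IGSF3 were also below 1 CPM in untreated knockout libraries. CDC42BPA lost its call when knockout control replicate 2 or the third treated knockout library was left out, and FLJ27365 lost its call in 11 of 12 such fits. Better covered was PPM1H, a protein phosphatase (chromosome 12, 63037761 to 63328816): it fell from 9.937, 10.74 and 8.315 to 3.12, 3.466 and 4.343 CPM in parent cells. Knockout libraries held 1.866, 1.222 and 2.173 CPM untreated and 1.59, 1.453 and 1.65 CPM treated, which overlap, and the interaction was 1.25 ± 0.27 (adjusted p = 0.0087). INPP4B, a lipid phosphatase, fell in parent cells by 1.0 and was not called in knockout cells (interaction 1.19 ± 0.26, adjusted p = 0.0105).

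In intron reads 1158 of 19908 genes were called for the interaction (5.82%), 598 positive (3.0%) and 560 negative (2.81%), with 38 (0.191%) and 197 (0.99%) past 2-fold. Of the negative genes 408 were called higher in parent cells and not called in knockout cells, where 12.1% of all genes were higher and 14.2% lower in parent and 7.85% higher and 9.05% lower in knockout cells. Of the positive genes 246 were called lower in parent cells and not called in knockout cells, 152 were called lower in both and 144 were called higher in knockout cells alone. Scaling by library size alone turned the majority, with 473 positive and 619 negative genes. These became 1047 positive and 1010 negative genes without parent control replicate 1. DUSP8 intron reads gave an interaction of -5.37 ± 0.17 (adjusted p = 5.62e-15): 2.777, 3.409 and 2.175 CPM rose to 138.8, 129.2 and 126.3 CPM in parent cells, against 13.21, 15.83 and 14.28 CPM untreated and 16.67, 18.08 and 14.43 CPM treated in knockout cells. Intron interactions were also called negative for FOS (-4.44), NEU4 (-4.44), BBC3 (-3.93), ID2 (-3.76) and EGR1 (-3.72). Of the NF-kappaB subunits and inhibitors 8 of 12 were negative in introns, and of 13 core histone genes with intron reads 12 were. JUN, RHOB and most histone genes have no intron or too few intron reads for this test.

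A model over exon and intron reads of the same 17351 genes asked whether the interaction itself differed between both kinds of read. The exon interaction exceeded the intron interaction in 42 genes (0.242%) and lay below it in 55 (0.317%). Without parent control replicate 1 these were 275 and 362, and other single libraries left out gave 9 to 71 and 6 to 61.

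TUBB4B, a beta-tubulin (chromosome 9, 140135664 to 140138158), was the clearest case of an intron interaction without one in exons. Its intron reads rose from 1.001, 1.929 and 2.669 to 13.34, 13.02 and 11.88 CPM in parent cells and overlapped in knockout cells, at 1.84, 2.708 and 3.416 CPM untreated and 3.345, 2.474 and 2.265 CPM treated. The intron interaction was -2.83 ± 0.39 (adjusted p = 0.000108) and the exon interaction 0.04 ± 0.11, a difference of 2.95 ± 0.40 (adjusted p = 0.00378). Exon levels were 266.2 to 330.8 CPM untreated and 248.2 to 262.6 CPM treated in parent cells. FAM166A, which overlaps the end of TUBB4B, shared the pattern and cannot be told apart from it. Of 14 tubulin genes tested in introns 4 were called negative and 0 positive, and the 10 that were not called ranged from -0.71 to 0.57. Beside TUBB4B, TUBB2A, TUBA4A and TUBB3 had intron interactions of -1.91, -1.57 and -0.72, all called, against exon values of -0.35, -0.13 and 0.06, of which that of TUBB2A was called as well (adjusted p = 0.0382). Of the intron reads of TUBA4A and TUBB3, only 47.9% and 56.7% lay outside other genes, so both are uncertain. MARCKSL1, a membrane-bound kinase substrate, had -1.95 in introns and -0.01 in exons (adjusted p of the difference = 0.00686), and SRSF1, a splicing factor, -0.52 and 0.60 (adjusted p of the difference = 0.00286). The intron value of SRSF1 was not called. The tubulin genes other than TUBB4B were looked at after these values had been seen.

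The reverse pattern, a more negative interaction in exons than in introns, held for IER2 and for MXD1, an antagonist of MYC. IER2, of whose exon reads 45.0% lay outside other genes, gave -2.23 ± 0.14 in exons and -0.48 ± 0.24 in introns, a difference of -1.79 ± 0.23 (adjusted p = 0.00239). MXD1 exon reads rose from 17.56, 17.01 and 18.01 to 49.25, 51.92 and 50.41 CPM in parent cells, and its intron reads from 83.01, 74.95 and 73.2 to 99.08, 93.95 and 92.22 CPM. The interaction of MXD1 was -1.62 in exons and -0.36 in introns, both called (difference -1.26 ± 0.12, adjusted p = 0.000422). Its intron call was lost in 10 of the 12 fits without 1 library. RASSF1, a tumor suppressor gene, showed -1.37 and -0.08 (difference -1.30 ± 0.22, adjusted p = 0.0161). The difference of RASSF1 lost its call in 6 of the 12 fits without 1 library.

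Host genes of small nucleolar RNAs, whose introns carry those RNAs and whose spliced messages are quickly degraded during translation, were called negative in 8 of 11 in exons (median -0.57) and 2 of 11 in introns (median 0.02), against 4.47% and 2.81% of all genes. ZFAS1 exons rose from 87.11, 83.89 and 91.42 to 173.3, 165.7 and 164.6 CPM in parent cells and stayed at 62.47 to 72.33 CPM in all 6 knockout libraries. Its introns lay at 366.9 to 417.4 CPM in all 6 parent libraries. The exon interaction of ZFAS1 was -0.98 ± 0.09, the intron interaction -0.06 ± 0.09 and the difference -0.92 ± 0.11 (adjusted p = 0.00153). SNHG12, SNHG1 and SNHG15 were the other 3 members for which the difference was called, at -1.0, -0.79 and -0.80; these lost their calls in 3, 8 and 8 of the 12 fits without 1 library.

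**Figure D4:**
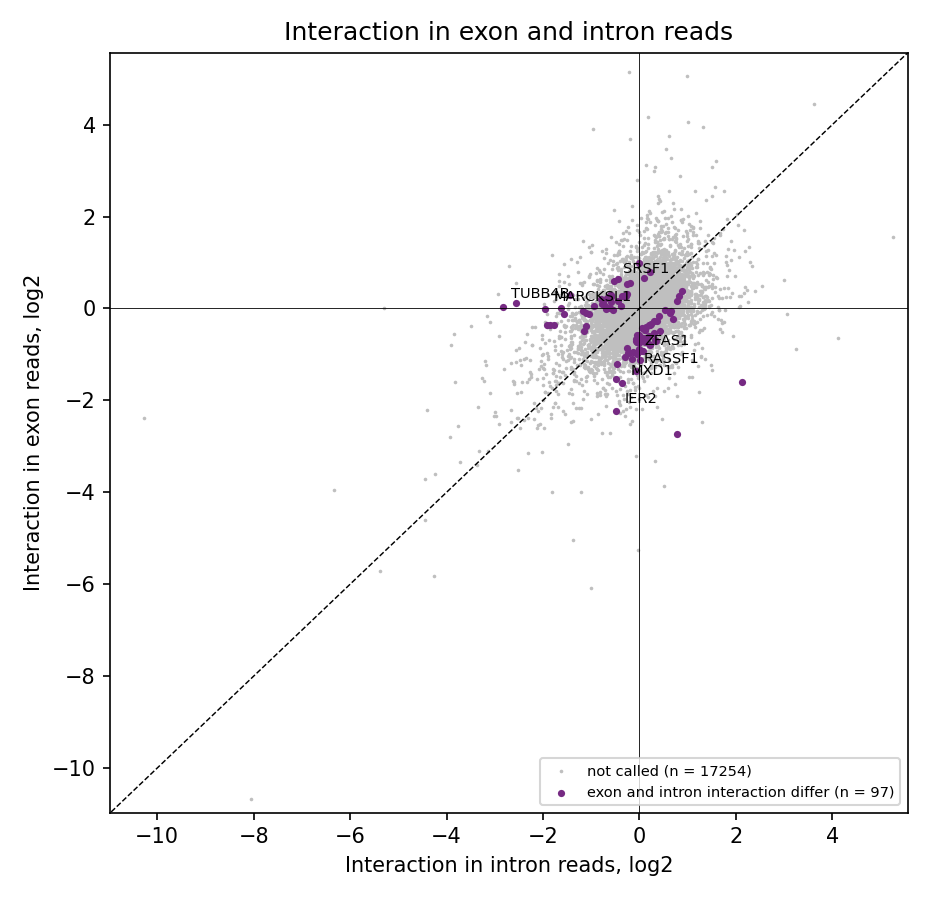
Interaction in intron reads (x axis) against interaction in exon reads (y axis), both log2, for the 17351 genes tested in both, with the dashed line at equal values. Purple points are the 97 genes whose interaction differed between exon and intron reads, which lie off that line, some near an exon value of 0 (TUBB4B, MARCKSL1), some with a lower exon than intron value (IER2, MXD1, RASSF1, ZFAS1), and some with opposite signs (SRSF1, whose intron value was not called).

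The share of positive interactions rose with gene length. The median exon interaction was 0.01 under 10 kb, -0.02 at 10 to 30 kb and 0.02 at 30 to 100 kb, and then 0.11 at 100 to 300 kb. The negative share in exons was highest at 10 to 30 kb (7.24%), not in the shortest class. In exon reads, 39 of 473 genes of 300 kb or longer were positive (8.25%) and 7 negative (1.48%), against 87 positive (0.816%) and 367 negative (3.44%) of 10666 genes under 10 kb. In intron reads the longest class had 139 positive (16%) and 6 negative (0.691%) of 868. The median interaction of the longest class was 0.22 in exons and 0.23 in introns. Its median exon response was -0.76 in parent and -0.52 in knockout cells. Without both libraries that stand apart the medians were 0.11 and 0.13. In exons 82 (17.1%) were then positive and 21 (4.38%) negative of 479, against 8.61% and 12.1% of all genes in that fit. Intron share is among the measures in which those libraries stood apart, and its part in the result was not tested.

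**Figure D5:**
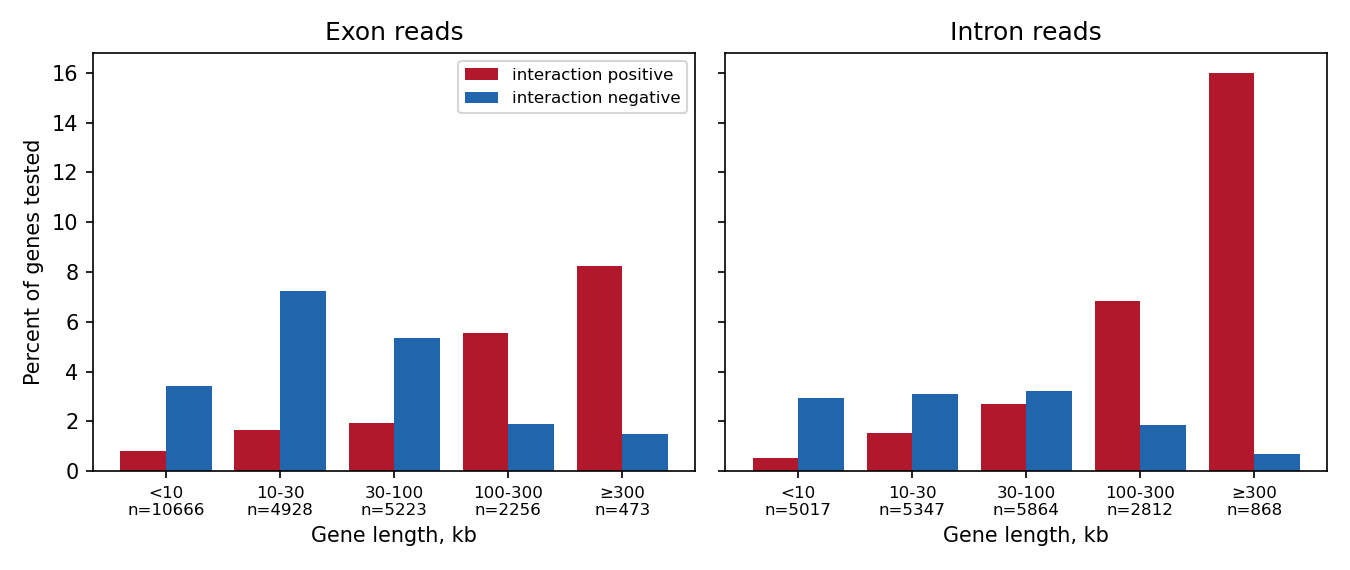
Percent of tested genes called positive (red) and negative (blue) for the interaction in 5 classes of gene length (kb), for exon reads on the left and intron reads on the right, with the number of genes under each class. The positive share rises with length to 8.25% in exons and 16% in introns, and the negative share is lowest in the longest class.

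Zinc finger genes went the other way in exon reads. Of 254 tested genes on chromosome 19 with names starting in ZNF, ZFP or ZSCAN, mostly DNA-binding repressors, 61 were negative (24%) and none positive in exon reads, with a median of -0.30. Genes with such names on other chromosomes were negative in 57 of 276 (20.7%), and other chromosome 19 genes in 95 of 1441 (6.59%). In intron reads 23 of 248 chromosome 19 zinc finger genes were negative (9.27%), with a median of -0.17, against 2.81% of all genes. Off chromosome 19, 11 of 269 genes with such names were negative in introns (4.09%) and 6 positive (2.23%), closer to the shares of all genes. Other chromosome 19 genes were negative in introns in 53 of 1195 (4.44%). Without parent control replicate 1, 128 of 255 were negative in exons.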

How the data were processed

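Total RNA of CCRF-CEM cells in 12 libraries (4 groups of 3) had been sequenced together on 1 run, per the labels' protocols. The title of parent control replicate 1, however, carries a sample tag out of sequence with those of all other libraries. Whether that library was prepared or sequenced apart was not tested. The authors deposited 1 table per library with whole-number counts of exon, intron and gene reads, per the file headers, on hg19. The submitters' processing notes name Trim Galore 0.6.2, Trimmomatic 0.39, STAR 2.5.4a and Picard 2.9.2, without their roles. The sources used here do not give the counting tool or its strand setting. Of deposited counts from 1 to 20, 68.3% were even in exons and 70.3% in introns, so the counts may not all be independent fragments.

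Genes missing from a table were set to 0. Exon counts (23546 genes after filterByExpr) and intron counts (19908) were each fitted across all 12 libraries with edgeR 4.0.16 (R 4.3.3, limma 3.58.1; TMM, robust quasi-likelihood test, Benjamini-Hochberg adjusted p below 0.05), which was tested on simulated data. A joint model with a term per library compared both kinds of read in 17351 genes. DESeq2 1.42.0, other scales and filters, a replicate block and each library left out were alternatives. Leaving out both libraries that stand apart was chosen after seeing the data.

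Named genes were, per direction, the 12 largest exon interactions with at least 1 CPM on average and no overlap between treated and untreated libraries in a genotype, up to 4 called members of each of 36 lists with those that went against the majority, the 6 largest intron interactions, up to 5 genes that differed between kinds of read, up to 6 opposite calls, and SLFN11, FOS, JUN, EGR1, ATF3 and IER2. The comparison, members and lists were chosen with earlier results of these data known. Other list members are given with their values to account for the list. Promoter matches were counted in the 250 bases upstream of 27305 RefSeq genes.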

Additional observations from a re-analysis of the deposited data

Results flagged for a closer look

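A response that differed between the genotypes by the test of the difference itself was found for 1487 genes in exon reads and 1158 genes in intron reads. Opposite calls in the genotypes, with the difference called as well, were found for 69 genes in exon reads and 70 in intron reads (0.352%). In exon reads 61 of the 69 were higher in treated parent and lower in treated knockout cells, while in intron reads 32 genes did this and 38 did the reverse.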

How the results depend on the processing

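Exon calls were 434 positive and 1053 negative. The positive count was 860 with library size alone, 778 with no filter on low counts, 817 with DESeq2 and 781 with total gene reads; the negative counts there were 996, 1147, 1268 and 1268. Without both libraries that stand apart there were 2083 positive and 2922 negative exon calls, 1465 positive and 1441 negative intron calls, and 3396 higher and 3934 lower genes in the knockout response. With library size alone the knockout response had 4693 higher and 1274 lower genes; that scale took the median of all genes from 0.013 to 0.138 in the parent and from 0.018 to 0.171 in the knockout response. It also turned the majority of intron calls, to 473 positive and 619 negative. The cause was not tested.

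Leaving out 1 library gave 179 to 1241 positive and 720 to 2262 negative exon calls, 330 to 1047 positive and 353 to 1010 negative intron calls, 9 to 275 positive and 6 to 362 negative differences between exon and intron reads, 945 to 3157 higher and 1537 to 3483 lower genes in the knockout response, and 3142 to 4608 higher and 3249 to 4224 lower genes in the parent response. The upper ends came without parent control replicate 1. Without any 1 treated parent library, any 1 untreated knockout library or treated knockout replicate 1 or 2, positive exon calls were 179 to 260.

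With a replicate block there were 368 positive and 980 negative exon calls, and with a replicate block within genotype 234 and 828. Deviations of same-numbered libraries correlated at -0.03 to 0.08, which shows no sign of pairing by number. Such values over all genes may hold mostly counting noise, so they cannot decide whether same-numbered libraries belong together.

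No called result of a named gene changed sign under the alternatives run. Values of named genes that were not called were not followed, apart from SLFN11 in exons. Medians of some lists changed sign. The intron median of EGR factors and NAB corepressors went from -1.81 to 0.09 with intron reads unique to a gene, that of replication genes in exons from 0.05 to -0.05 without parent control replicate 1, and that of mitochondrially encoded genes from 0.40 to -0.02 without both libraries that stand apart. Of 121 named genes followed in exons, 92 kept their result in every alternative in which they were tested. Both counts include SLFN11, which was not called. Not every gene was tested in all of them: FOSB, DUSP1 and HSPA6 had 22 exon alternatives and EGR3 21, against 23 for JUN. Calls held in every alternative with a test for 41 of 55 named genes in introns and for 8 of 16 for the difference. Depth limits genes below 1 CPM.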
